A study of Homo sapiens with 4 samples.

Results

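The 54 genes described here make nucleotides and move one-carbon units. They are the enzymes of purine and pyrimidine synthesis and salvage, the suppliers of deoxynucleoside triphosphates (dNTPs), and the genes of serine synthesis, the folate cycle and the methionine cycle. They were chosen by pathway membership, as the rows whose Ensembl identifier maps to a listed symbol. All 54 were found among the 64252 gene rows of the count table, and all 54 passed the filter on low counts. The cells were SK-N-BE(2), an established human neuroblastoma line with amplified MYCN, and RNA was sequenced in 4 libraries. In 2 libraries the cells had been transfected with a short hairpin RNA (shRNA) against IRF2BP2, and in the other 2 with a scramble shRNA. Both groups are the same unsorted line and carry an shRNA. The labels name 1 shRNA per group and do not give its sequence, the time after transfection, or whether replicates were cultured separately. The p-values therefore cover library-to-library spread, which may be technical.

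Library totals lay between 30847699 and 34684651 counts. Mitochondrial genes held 6.42% of counts in each IRF2BP2 shRNA library, against 7.27% and 7.10% with scramble shRNA. IRF2BP2, the targeted co-regulator, had 89.6 and 87.6 CPM (counts scaled to library size) with IRF2BP2 shRNA, against 243 and 238 CPM with scramble shRNA, so the label held in all 4 libraries. Of 8 adrenergic neuroblastoma markers, all had counts in every library. Their summed level was 1655 and 1667 CPM with IRF2BP2 shRNA, against 2726 and 2951 CPM with scramble shRNA. Of the 8, 7 fell and 0 rose, and 25.9% of protein-coding genes averaging 10 CPM or more fell. The marker lists were chosen with earlier results of these data known. Of 8 Schwann or fibroblast markers the summed level was 224 and 221 CPM with IRF2BP2 shRNA, against 302 and 286 CPM with scramble shRNA, most of it PDGFRB and LUM, and SOX10 had at most 1 count. Of 8 immune or endothelial markers, 3 were at 0 in all libraries (CD3E, LYZ and PECAM1), and the sum was between 3.93 and 4.89 CPM with IRF2BP2 shRNA, against 5.45 to 7.94 CPM with scramble shRNA. The part of these shifts in the results below was not tested. Because each library is bulk RNA, fewer cells of a kind and less RNA per cell cannot be told apart.

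Nucleotides are built on phosphoribosyl pyrophosphate (PRPP). Purines are assembled on it ring atom by ring atom, pyrimidines are made as a ring and then joined to it, and salvage enzymes attach recovered bases or phosphorylate recovered nucleosides. Serine, made from a glycolytic intermediate, hands a carbon to tetrahydrofolate in the cytosol or in mitochondria, and folate carries it to purines, to thymidylate and to the remethylation of homocysteine. Growing tumour cells draw on all of these routes, and many of the genes are known targets of MYC proteins, of the stress factor ATF4 or of the S-phase E2F factors.

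Promoter letters are shown first, since the motifs of those factors can be looked up in the promoters of these genes. RefSeq promoter windows (build GRCh38.p14, from 250 bases before a start site to 50 after) were held for 46 of the 54 genes. The E-box letters CACGTG, which MYC proteins can bind, stood in a window of 10 of these 46 genes (21.7%), against 10.9% of 15812 protein-coding genes, on either strand. Of the 10, PAICS, NME1 and MTHFD1L rose, MTHFD1 and FPGS fell, and ATIC, DCK, DHODH, PPAT and SLC19A1 were not called. PPAT and PAICS run away from each other, so the 136 bases between their starts, chr4:56435616-56435751 on the plus strand, is upstream of both. It holds neither CACGTG nor the other letters searched below (TTTCCCGC of E2F, TTTGGCGC of E2F and CCAAT of NF-Y), and a CACGTG begins 182 bases before the PPAT start, inside the PAICS transcript. Shown next are 1 upstream stretch with CACGTG for a gene that rose (MTHFD1L, chr6:150866297-150866446, plus strand), 1 for a gene that fell (MTHFD1, chr14:64388253-64388352, plus) and 1 for a gene that was not called (ATIC, chr2:215311959-215312058, plus), with the motif in capitals. In MTHFD1L the second run of capitals is TGATGNAA, the letters of the ATF4 response element, which stood in a window of 1 of the 46 genes (2.17%), against 3.60% of protein-coding genes. The MTHFD1L stretch lies before its listed start at chr6:150866447. Another listed start, chr6:150866333, lies inside the stretch, with CACGTG beginning 1 base before it and TGATGNAA 24 bases after it.
PPAT-PAICS: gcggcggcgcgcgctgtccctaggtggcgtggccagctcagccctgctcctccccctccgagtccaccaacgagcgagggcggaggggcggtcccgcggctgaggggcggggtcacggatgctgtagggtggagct
MTHFD1L: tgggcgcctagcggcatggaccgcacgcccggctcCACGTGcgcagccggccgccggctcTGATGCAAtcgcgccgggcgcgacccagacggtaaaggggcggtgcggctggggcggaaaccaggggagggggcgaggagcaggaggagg
MTHFD1: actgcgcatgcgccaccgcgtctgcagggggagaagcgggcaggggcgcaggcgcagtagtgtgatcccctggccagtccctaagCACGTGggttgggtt
ATIC: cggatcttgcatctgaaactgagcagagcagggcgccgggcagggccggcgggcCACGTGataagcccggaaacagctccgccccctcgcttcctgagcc

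The E2F letters TTTCCCGC stood in a window of 7 of the 46 genes (15.2%), against 2.66% of protein-coding genes, and TTTGGCGC in 3 (6.52%), against 1.09%. None of the 16 genes with a window that rose held TTTCCCGC. Of the 8 with a window that fell, DUT and TYMS held it, and the other 5 holders were not called. CCAAT, the letters of the NF-Y box, stood in a window of 23 of the 46, against 42.1% of protein-coding genes. The stretches shown are those before the starts of DUT (chr15:48332097-48332196, plus, the most downstream of its 4 listed starts) and TYMS (chr18:657553-657652, plus), with the E2F letters in capitals. They also include TK1 (chr17:78187053-78187152, minus) and PSAT1 (chr9:78296975-78297124, plus), with CCAAT or its reverse complement in capitals. A match describes letters, not a bound site.
DUT: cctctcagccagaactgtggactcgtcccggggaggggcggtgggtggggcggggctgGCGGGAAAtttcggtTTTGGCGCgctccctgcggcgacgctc
TYMS: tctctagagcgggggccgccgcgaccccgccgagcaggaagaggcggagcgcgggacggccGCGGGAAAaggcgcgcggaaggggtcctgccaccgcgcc
TK1: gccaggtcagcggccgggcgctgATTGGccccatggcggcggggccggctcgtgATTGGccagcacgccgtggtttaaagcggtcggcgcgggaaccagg
PSAT1: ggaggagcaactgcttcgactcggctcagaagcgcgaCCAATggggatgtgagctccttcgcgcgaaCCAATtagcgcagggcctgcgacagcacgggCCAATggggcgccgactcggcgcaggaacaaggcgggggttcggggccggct

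With IRF2BP2 shRNA, genes of purine and pyrimidine synthesis, the mitochondrial folate carrier and TK1 of dNTP supply were among the rises. Genes of serine synthesis, the cytosolic folate cycle and dNTP supply (DUT, SAMHD1 and TYMS) were among the falls. Of the 54 genes, 19 rose, 10 fell and 25 were not called at an adjusted p under 0.05 (edgeR quasi-likelihood test, adjusted over all 19093 genes tested). The 53.7% called stands beside 42.0% of all genes tested, 51.0% of protein-coding genes and 58.6% of protein-coding genes averaging 10 CPM or more, so the share was near the background. Among protein-coding genes at that level 32.7% were called higher and 25.9% lower. The changes were small. SAMHD1 and SLC25A32 were the only called genes to move by at least 1.5-fold, 3.70% of the 54, against 17.7% of all genes and 14.7% of protein-coding genes averaging 10 CPM or more. The median absolute log2 fold change was 0.17 for the 54, 0.31 for all genes tested and 0.23 for protein-coding genes averaging 10 CPM or more. The median signed log2 fold change (IRF2BP2 shRNA over scramble shRNA) was 0.08 for the 54 and -0.01 for all genes tested. For the 51 of them averaging 10 CPM or more it was 0.056, near the 0.045 of protein-coding genes at that level. In 44 of the 54 (81.5%) the groups did not overlap, against 70.4% of all genes tested, 76.4% of protein-coding genes and 80.8% of protein-coding genes at that level. The share of rises among the calls moved most in 2 of the alternatives. With upper quartile factors, which shift the median of all genes to -0.06, 15 rose and 15 fell, and with only genes averaging 10 CPM or more, 14 rose and 15 fell. RLE factors and library totals both left it at 19 and 10.

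**Figure D1:**
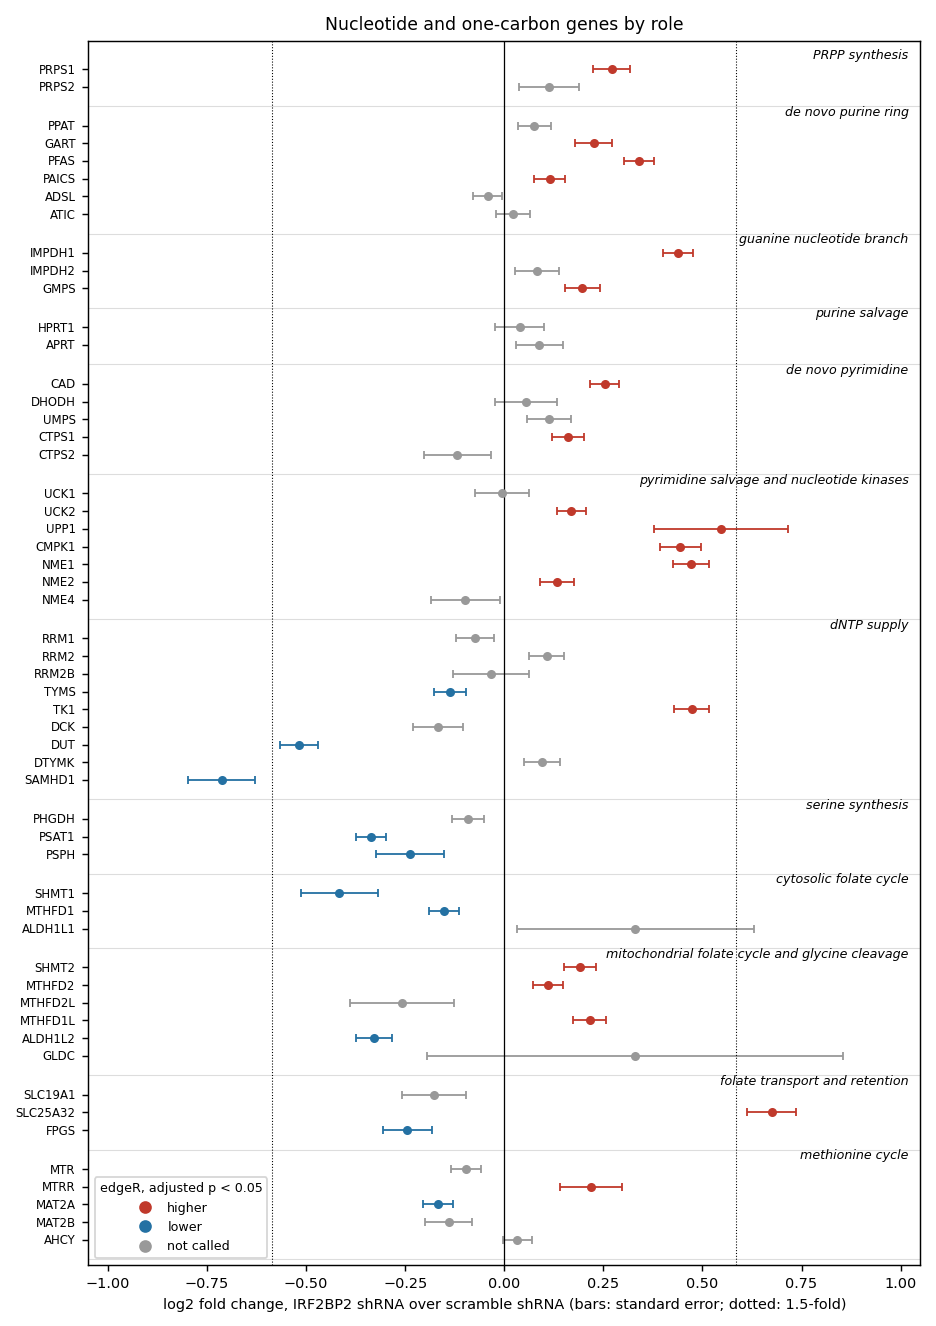
Log2 fold change of each of the 54 genes (x axis, IRF2BP2 shRNA over scramble shRNA, bars 1 standard error), grouped by role down the page and coloured by call. Purine and pyrimidine genes that passed the test lie right of 0, serine synthesis genes lie left of 0, and SAMHD1 (-0.71) and SLC25A32 (0.67) alone pass the dotted 1.5-fold lines with a call.

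**Figure D2:**
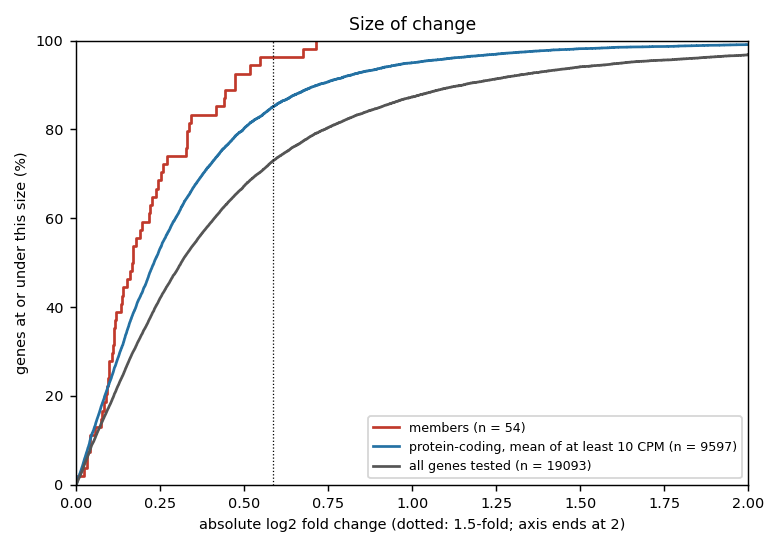
Share of genes (y axis, %) whose absolute log2 fold change is at or under the size on the x axis, for the 54 genes, for protein-coding genes averaging 10 CPM or more, and for all 19093 genes tested. The curve of the 54 lies left of the curve of all genes over most of its length, with medians of 0.17 and 0.31. The protein-coding curve has a median of 0.23.

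Of 13 purine genes from PRPP synthesis to salvage, 6 rose and 0 fell. The 46.2% called was near the 42.0% of all genes tested and below the 58.6% of protein-coding genes averaging 10 CPM or more. Over the 12 alternative analyses without a fold threshold, 4 to 7 rose and 0 fell. PRPS1, which makes PRPP, had 85.1 and 84.9 CPM with IRF2BP2 shRNA, against 71.4 and 69.5 CPM with scramble shRNA, a log2 fold change of 0.27 (standard error 0.05, edgeR adjusted p = 6.88e-04). The groups did not overlap. Its paralog PRPS2 had 34.1 and 34.7 CPM with IRF2BP2 shRNA, against 32.9 and 30.6 CPM with scramble shRNA, and was not called (edgeR adjusted p = 0.263).

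In the de novo ring pathway, PFAS, GART and PAICS rose and PPAT, ADSL and ATIC were not called. PFAS, which adds an amide nitrogen from glutamine, had 178 and 180 CPM with IRF2BP2 shRNA, against 143 and 140 CPM with scramble shRNA (log2 fold change 0.34, standard error 0.04, edgeR adjusted p = 2.60e-05). GART, an enzyme with several activities early in the pathway, had 96.3 and 101 CPM with IRF2BP2 shRNA, against 87.0 and 81.8 CPM with scramble shRNA (log2 fold change 0.23). For both, each IRF2BP2 shRNA library lay above each scramble library. Groups did not overlap in 80.8% of protein-coding genes averaging 10 CPM or more. PAICS, the next carboxylase and ligase, had 552 and 541 CPM with IRF2BP2 shRNA, against 516 and 493 CPM with scramble shRNA, and its log2 fold change of 0.11 passed narrowly (edgeR adjusted p = 0.0328). The PAICS call held in 7 of 12 alternatives. PPAT, the committed step, which shares the promoter stretch shown above with PAICS, had a log2 fold change of 0.08 (standard error 0.04, edgeR adjusted p = 0.177). ATIC and ADSL, which act late in the pathway, had log2 fold changes of 0.02 and -0.04, and ATIC turned to -0.03 with upper quartile factors.

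At the branch to guanine nucleotides, IMPDH1 had the largest purine rise. This isoform of the rate-limiting dehydrogenase had 176 and 179 CPM with IRF2BP2 shRNA, against 130 and 132 CPM with scramble shRNA (log2 fold change 0.44, standard error 0.04, edgeR adjusted p = 3.32e-06). IMPDH2, the isoform usually linked to proliferation, had 132 and 145 CPM with IRF2BP2 shRNA, against 125 and 136 CPM with scramble shRNA, with overlapping groups and no call (edgeR adjusted p = 0.276). GMPS, which finishes GMP, had 132 and 123 CPM with IRF2BP2 shRNA, against 112 and 111 CPM with scramble shRNA (log2 fold change 0.20), and lost the call without IRF2BP2 shRNA replicate 1 (edgeR adjusted p = 0.0696). The salvage enzymes were not called. HPRT1 had 49.9 and 49.2 CPM with IRF2BP2 shRNA, against 48.0 and 48.5 CPM with scramble shRNA, and APRT had 67.2 and 74.2 CPM, against 65.3 and 67.6 CPM.

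MYCN itself rose, to 7075 and 7174 CPM with IRF2BP2 shRNA, against 5361 and 5517 CPM with scramble shRNA (log2 fold change 0.39). Of 27 ribosome biogenesis and growth genes known as MYC targets, 21 rose and 0 fell, with a median of 0.29. None of them is among the 54. Of protein-coding genes averaging 10 CPM or more, 32.7% rose and 25.9% fell. The MYC target list was chosen with earlier results of these data known. The part of MYCN in the purine and pyrimidine values was not tested.

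Of 12 pyrimidine genes, 7 rose and 0 fell. The 58.3% called was near the 58.6% of protein-coding genes averaging 10 CPM or more, and 42.0% of all genes tested were called. Over the same 12 alternatives, 4 to 7 rose and 0 or 1 fell, with 4 higher and 1 lower (CTPS2) without IRF2BP2 shRNA replicate 1. CAD, which carries the opening steps of the ring, had 419.6 and 417.9 CPM with IRF2BP2 shRNA, against 351.5 and 351.4 CPM with scramble shRNA (log2 fold change 0.25, standard error 0.04, edgeR adjusted p = 1.88e-04). Replicates of CAD were close to each other and the groups did not overlap. CTPS1, which turns UTP into CTP, had 169 and 167 CPM with IRF2BP2 shRNA, against 146 and 154 CPM with scramble shRNA (log2 fold change 0.16), and lost the call without IRF2BP2 shRNA replicate 1 (edgeR adjusted p = 0.0543). DHODH, the mitochondrial oxidation step, and UMPS, which closes the path to UMP, had log2 fold changes of 0.06 and 0.11 and were not called. CTPS2 had 51.7 and 43.7 CPM with IRF2BP2 shRNA, against 53.9 and 49.5 CPM with scramble shRNA, with no call, but it was called lower without IRF2BP2 shRNA replicate 1 (edgeR adjusted p = 0.0475).

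Among salvage enzymes and nucleotide kinases, NME1 and CMPK1 had the clearest rises. NME1, a nucleoside diphosphate kinase, had 301 and 289 CPM with IRF2BP2 shRNA, against 220 and 205 CPM with scramble shRNA (log2 fold change 0.47, standard error 0.05, edgeR adjusted p = 8.99e-06). NME2, its neighbour on chromosome 17 and close paralog, had 332 and 320 CPM with IRF2BP2 shRNA, against 306 and 289 CPM with scramble shRNA (log2 fold change 0.13), a call that held in 7 of 12 alternatives. The read-through gene NME1-NME2 shares exon bases with both, so their counts are uncertain. Its own level was 240 and 295 CPM with IRF2BP2 shRNA, against 225 and 293 CPM with scramble shRNA, with no call. CMPK1, the UMP and CMP kinase, had 94.8 and 92.5 CPM with IRF2BP2 shRNA, against 65.9 and 71.8 CPM with scramble shRNA (log2 fold change 0.44, edgeR adjusted p = 4.11e-05). UPP1, uridine phosphorylase, had the largest pyrimidine fold at the lowest level, with 7.10 and 7.19 CPM with IRF2BP2 shRNA, against 4.61 and 5.18 CPM with scramble shRNA (log2 fold change 0.55, standard error 0.17, edgeR adjusted p = 0.0228). The UPP1 call held in 7 of 11 alternatives and was lost without IRF2BP2 shRNA replicate 1, IRF2BP2 shRNA replicate 2 or scramble replicate 1 (edgeR adjusted p = 0.0818, 0.0927 and 0.0946). UCK2, a uridine and cytidine kinase, had 166 and 166 CPM with IRF2BP2 shRNA, against 147 and 148 CPM with scramble shRNA (log2 fold change 0.17), while UCK1 (-0.01) and the mitochondrial kinase gene NME4 (-0.10) were not called.

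The dNTP supply genes split. TK1, the S-phase thymidine kinase of salvage, had 101 and 104 CPM with IRF2BP2 shRNA, against 72.2 and 75.3 CPM with scramble shRNA (log2 fold change 0.47, standard error 0.04, edgeR adjusted p = 7.22e-06). DUT, which breaks down dUTP and yields dUMP for thymidylate synthesis, had 202 and 197 CPM with IRF2BP2 shRNA, against 273 and 298 CPM with scramble shRNA (log2 fold change -0.52, standard error 0.05, edgeR adjusted p = 6.09e-06). SAMHD1, a phosphohydrolase that removes dNTPs, had 20.6 and 19.0 CPM with IRF2BP2 shRNA, against 33.1 and 31.7 CPM with scramble shRNA (log2 fold change -0.71, standard error 0.08, edgeR adjusted p = 3.82e-05). TK1 lies at chr17:78174075-78187233, DUT at chr15:48331011-48343373 and SAMHD1 at chr20:36889773-36951901 (GRCh38). In all 3 the groups were apart, as they were in 80.8% of protein-coding genes averaging 10 CPM or more. The 3 calls held in all 12 alternatives. DUT shares 14.5% of its exon bases with DUT-AS1 on the opposite strand, whose 784 counts over the 4 libraries stand beside 31401 for DUT.

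TYMS, thymidylate synthase, had 98.5 and 96.3 CPM with IRF2BP2 shRNA, against 108 and 106 CPM with scramble shRNA (log2 fold change -0.14, edgeR adjusted p = 0.0173), and this call held in 7 of 12 alternatives. It shares 39.1% of its exon bases with ENOSF1 on the opposite strand, a gene that rose by 0.53. Unless the libraries mark strand, reads in those shared bases cannot be told apart. The subunits of ribonucleotide reductase were not called. RRM1, the large subunit, had 244 and 225 CPM with IRF2BP2 shRNA, against 253 and 241 CPM with scramble shRNA. RRM2, the S-phase small subunit, had 347 and 343 CPM with IRF2BP2 shRNA, against 333 and 308 CPM with scramble shRNA (edgeR adjusted p = 0.0748, with a call higher in 2 of 12 alternatives). RRM2B, the small subunit induced by p53, had 17.8 and 19.1 CPM with IRF2BP2 shRNA, against 18.2 and 19.6 CPM with scramble shRNA. DCK (-0.17), deoxycytidine kinase, and DTYMK (0.09), thymidylate kinase, were not called either.

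Cell cycle genes outside the 54 were counted beside the dNTP genes, of which 1 rose, 3 fell and 5 were not called (median -0.07). The 44.4% of dNTP genes called was near the 42.0% of all genes tested and below the 58.6% of protein-coding genes averaging 10 CPM or more. Of 33 G1/S and replication genes, 23 rose and 3 fell (median 0.28), and of 35 G2/M genes 1 rose and 25 fell (median -0.33). Beside these stand 32.7% higher and 25.9% lower among protein-coding genes averaging 10 CPM or more. Both cell cycle lists were chosen with earlier results of these data known. MKI67, a proliferation marker, had 592 and 572 CPM with IRF2BP2 shRNA, against 860 and 854 CPM with scramble shRNA. The part of the cell cycle in the dNTP values was not tested.

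**Figure D3:**
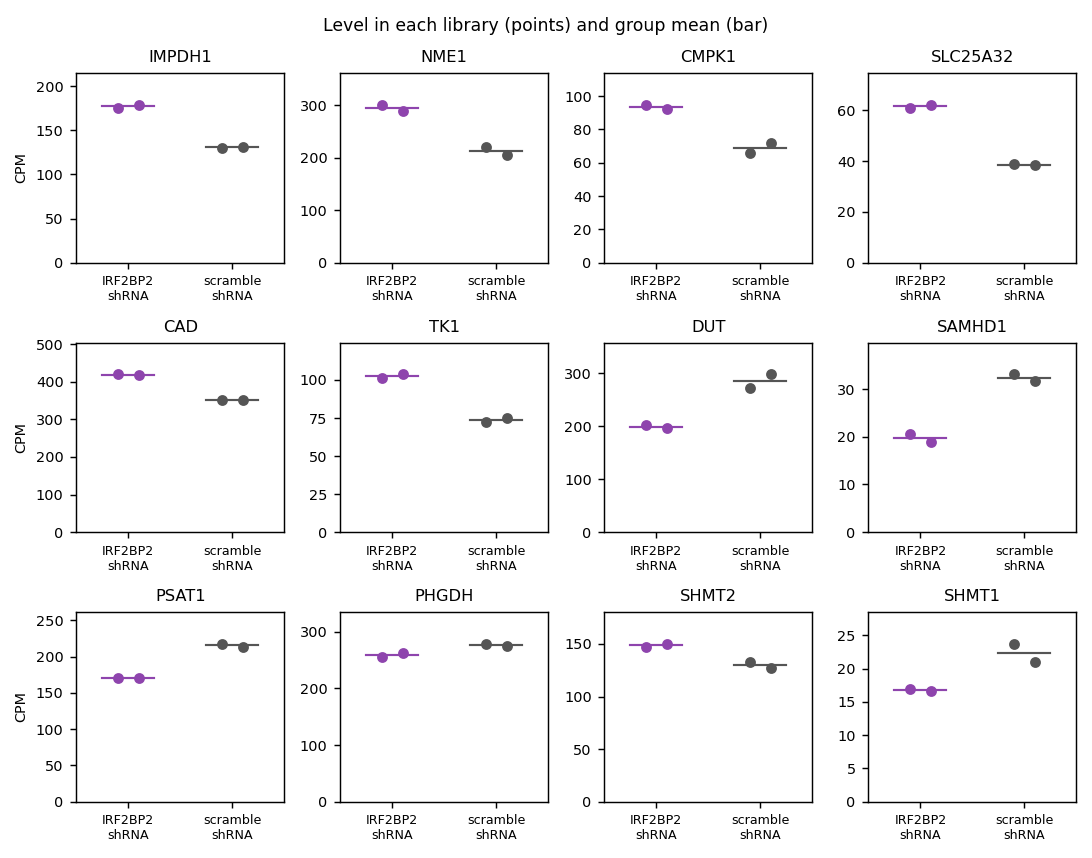
Level in CPM (y axis, from 0) of 12 of the genes in each of the 4 libraries, IRF2BP2 shRNA left and scramble shRNA right, with a bar at the group mean (n = 2). The IRF2BP2 shRNA points are above both scramble points for IMPDH1, NME1, CMPK1, SLC25A32, CAD, TK1 and SHMT2, and below both for DUT, SAMHD1, PSAT1, PHGDH and SHMT1.

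Of the 3 enzymes that make serine from the glycolytic intermediate, 2 fell and 0 rose. The 66.7% called was near the 58.6% of protein-coding genes averaging 10 CPM or more, and 42.0% of all genes tested were called. In all 3 both IRF2BP2 shRNA values were below both scramble values, a lack of overlap shared by 80.8% of protein-coding genes averaging 10 CPM or more. PSAT1, the transaminase, had 171 and 170 CPM with IRF2BP2 shRNA, against 218 and 213 CPM with scramble shRNA (log2 fold change -0.34, standard error 0.04, edgeR adjusted p = 3.09e-05). PSPH, the phosphatase, had 29.7 and 31.2 CPM with IRF2BP2 shRNA, against 33.4 and 38.5 CPM with scramble shRNA (log2 fold change -0.24, edgeR adjusted p = 0.0443), and its call held in 6 of 12 alternatives. A pseudogene named for PSPH held counts equal to 4.12% of those of PSPH, so some reads may be shared. PHGDH, the first enzyme, had 256 and 263 CPM with IRF2BP2 shRNA, against 279 and 274 CPM with scramble shRNA, and was not called (log2 fold change -0.09, edgeR adjusted p = 0.0865), though it was called lower in 2 alternatives. Of 30 tested genes of the ATF4 response outside the 54, 20 rose and 3 fell, with a median of 0.32. Beside these stand 32.7% higher and 25.9% lower among protein-coding genes averaging 10 CPM or more. The ATF4 list was chosen with earlier results of these data known. ATF4 had 343 and 366 CPM with IRF2BP2 shRNA, against 352 and 377 CPM with scramble shRNA, with no call.

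Of 6 genes of the mitochondrial folate cycle and glycine cleavage 3 rose and 1 fell, and of 3 genes of the cytosolic cycle 2 fell and 0 rose. The 66.7% called in each was near the 58.6% of protein-coding genes averaging 10 CPM or more, and 42.0% of all genes tested were called. The difference between the compartments was not tested. In mitochondria SHMT2, MTHFD2 and MTHFD1L, which release the serine carbon and pass it on as formate, rose. SHMT2 had 147 and 150 CPM with IRF2BP2 shRNA, against 133 and 127 CPM with scramble shRNA (log2 fold change 0.19, standard error 0.04, edgeR adjusted p = 0.00230). MTHFD1L, the formate-releasing synthetase, had 103 and 106 CPM with IRF2BP2 shRNA, against 89.8 and 90.2 CPM with scramble shRNA (log2 fold change 0.22). MTHFD2, the dehydrogenase often raised in tumours, had 239 and 244 CPM with IRF2BP2 shRNA, against 224 and 223 CPM with scramble shRNA, and its log2 fold change of 0.11 was a call in 7 of 12 alternatives (edgeR adjusted p = 0.0399). ALDH1L2, which oxidises formyl-tetrahydrofolate in mitochondria, fell, with 75.7 and 73.5 CPM with IRF2BP2 shRNA, against 95.4 and 91.9 CPM with scramble shRNA (log2 fold change -0.33, standard error 0.05, edgeR adjusted p = 1.46e-04). MTHFD2L (-0.26) and GLDC of the glycine cleavage system, at 12 to 20 counts a library, were not called.

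In the cytosol SHMT1 and MTHFD1 fell. SHMT1, the cytosolic serine hydroxymethyltransferase, had 16.9 and 16.6 CPM with IRF2BP2 shRNA, against 23.7 and 20.9 CPM with scramble shRNA (log2 fold change -0.42, standard error 0.10, edgeR adjusted p = 0.00487). MTHFD1, which interconverts the folate forms of the cytosol, had 290 and 290 CPM with IRF2BP2 shRNA, against 319 and 325 CPM with scramble shRNA (log2 fold change -0.15). The MTHFD1 call was lost without either IRF2BP2 shRNA library. ALDH1L1, the cytosolic counterpart of ALDH1L2, had 1.91 and 1.62 CPM with IRF2BP2 shRNA, against 1.47 and 1.34 CPM with scramble shRNA, and was not called (edgeR adjusted p = 0.416).

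Folate transport held the largest rise of the 54. SLC25A32, which carries folate into mitochondria, had 61.0 and 62.2 CPM with IRF2BP2 shRNA, against 38.8 and 38.3 CPM with scramble shRNA (log2 fold change 0.67, standard error 0.06, edgeR adjusted p = 5.42e-06), and it kept the call in all 12 alternatives. SLC25A32 shares 11.1% of its exon bases with DCAF13 on the opposite strand, which rose by 0.30, so its counts are uncertain. A same-strand gene model of the annotation shares 69.7% of them but has no row in the count table. FPGS, which adds the glutamate tail that keeps folate in the cell, had 52.4 and 55.5 CPM with IRF2BP2 shRNA, against 61.7 and 66.1 CPM with scramble shRNA (log2 fold change -0.24, edgeR adjusted p = 0.00776), and lost the call without IRF2BP2 shRNA replicate 1 (edgeR adjusted p = 0.0619). SLC19A1, the reduced folate carrier of the cell surface, had 43.7 and 49.0 CPM with IRF2BP2 shRNA, against 49.2 and 55.7 CPM with scramble shRNA. It was not called (edgeR adjusted p = 0.104) but was called lower in 5 of 12 alternatives.

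In the methionine cycle MAT2A fell and MTRR rose. MAT2A, which makes the methyl donor S-adenosylmethionine, had 477 and 479 CPM with IRF2BP2 shRNA, against 549 and 525 CPM with scramble shRNA (log2 fold change -0.17, standard error 0.04, edgeR adjusted p = 0.00395). GGCX, on the opposite strand over 12.4% of its exon bases, rose by 0.24. MTRR, which reactivates methionine synthase, had 36.2 and 37.2 CPM with IRF2BP2 shRNA, against 33.0 and 30.0 CPM with scramble shRNA (log2 fold change 0.22, edgeR adjusted p = 0.0413), the least stable call of the 29, kept in 4 of 12 alternatives. Methionine synthase itself, MTR (-0.10), the regulatory subunit MAT2B (-0.14) and AHCY (0.03), which clears S-adenosylhomocysteine, were not called.

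The share of each enzyme within a pair of related enzymes was followed as well. Levels are compared here per length, as FPKM (CPM per kilobase of merged exon). SHMT2 made up 92.9% and 93.2% of the summed FPKM of SHMT2 and SHMT1 with IRF2BP2 shRNA, against 89.4% and 90.1% with scramble shRNA. MTHFD1L made up 39.9% and 40.6% of its pair with MTHFD1 with IRF2BP2 shRNA, against 34.4% and 34.1% with scramble shRNA. In both pairs the mitochondrial gene rose, the cytosolic gene fell, and the groups did not overlap. IMPDH1 made up 50.3% and 48.4% of its pair with IMPDH2 with IRF2BP2 shRNA, against 44.0% and 42.4% with scramble shRNA, and NME1 40.9% and 40.8% of its pair with NME2, against 35.5% and 35.2%. Of 10 pairs compared, RRM2 with RRM2B was the only one whose shares overlapped between groups. As single genes, 70.4% of all tested and 80.8% of protein-coding genes averaging 10 CPM or more did not overlap either. Those are rates for levels, and no such rate was computed for shares of a pair. With 2 libraries against 2, no permutation test of a share can reach 0.05, so no p is given.

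**Figure D4:**
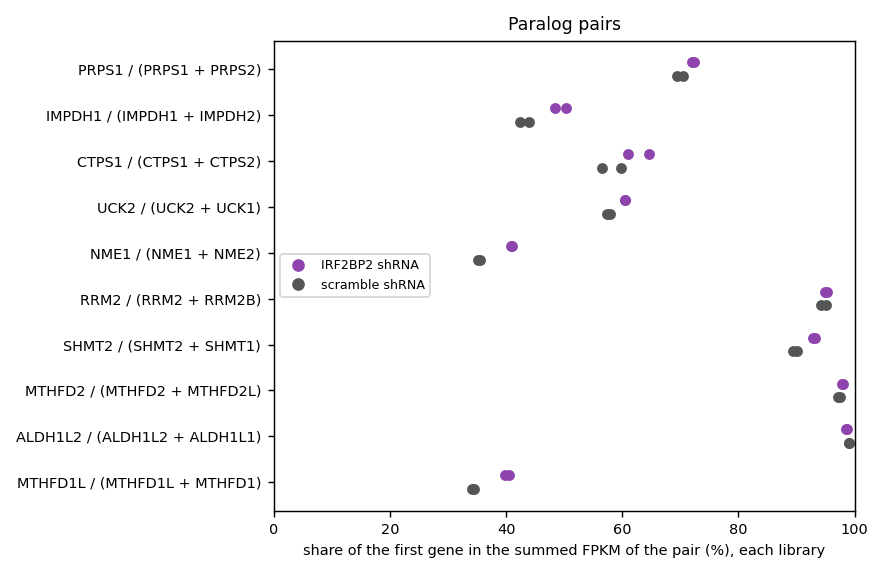
Share of the first gene in the summed FPKM of a paralog pair (x axis, %) in each library, IRF2BP2 shRNA above scramble shRNA in each row. The shift to the right is largest for IMPDH1, MTHFD1L and NME1 and is reversed for ALDH1L2, at 98.5% and 98.6% with IRF2BP2 shRNA and 99.1% in each scramble library.

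Rises and falls were found at both high and low levels. With scramble shRNA the most abundant of the 54 were MAT2A (120 FPKM), NME2 (113), PSAT1 (98.5) and AHCY (92.5), of which MAT2A and PSAT1 fell, NME2 rose and AHCY was not called. SAMHD1 was at 1.76 FPKM with IRF2BP2 shRNA and 2.88 FPKM with scramble shRNA, and GLDC at 0.06 and 0.04 FPKM. The 54 together made up 0.752% and 0.753% of the scaled counts with IRF2BP2 shRNA, against 0.732% and 0.728% with scramble shRNA.

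**Figure D5:**
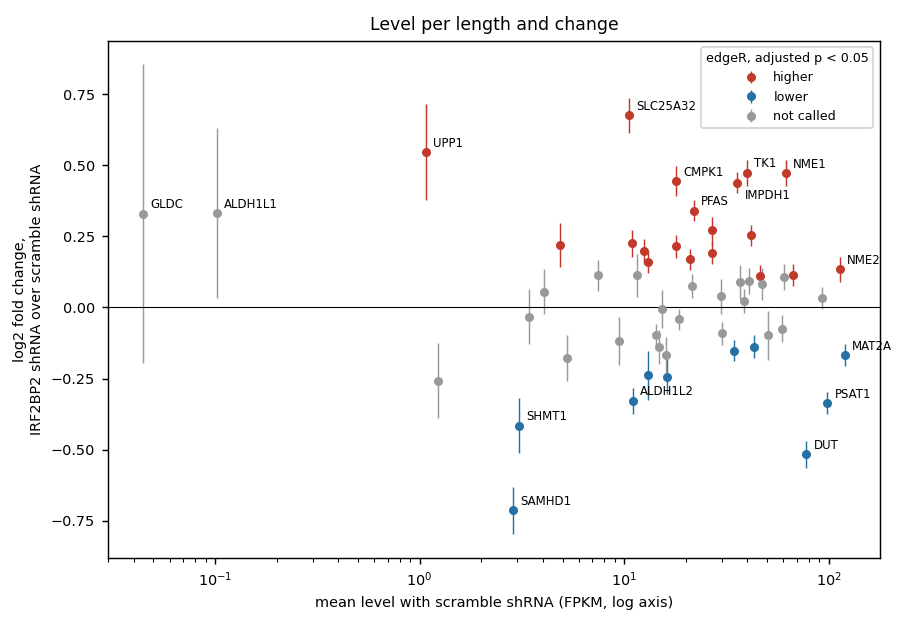
Mean level with scramble shRNA in FPKM (x axis, log scale) against log2 fold change with 1 standard error (y axis) for the 54 genes, coloured by call. Rises and falls are found from about 1 FPKM (UPP1) to over 100 FPKM (NME2, MAT2A), and the widest bars belong to GLDC and ALDH1L1 at the lowest levels.

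Other genes of the same pathways, listed apart from the 54, changed both ways. Of 82 listed, 71 were tested, 13 rose, 17 fell and 41 were not called, a share called of 42.3% against 42.0% of all genes tested. At least 1.5-fold changes were called in 12 (16.9%, against 17.7% of all genes). The rises were led by CMPK2, a mitochondrial UMP and CMP kinase, with 4.38 and 3.72 CPM with IRF2BP2 shRNA, against 1.21 and 0.68 CPM with scramble shRNA (log2 fold change 2.08). The next were the nucleoside transporter gene SLC29A2 (0.46), ITPA (0.45), which clears inosine triphosphate, the glutamine and serine transporter gene SLC1A5 (0.32) and the AMP deaminase gene AMPD2 (0.31). The falls were led by NT5E, a surface enzyme that makes adenosine from AMP, with 26.1 and 25.6 CPM with IRF2BP2 shRNA, against 143 and 145 CPM with scramble shRNA (log2 fold change -2.48). AMPD3 (-2.14), the nucleotidase gene NT5M (-1.04), the mitochondrial sideroflexin gene SFXN3 (-0.88) and the serine and alanine transporter gene SLC1A4 (-0.84) followed.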

How the data were processed

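The only values used were raw counts per gene as the authors deposited them, with each library in its own column. HISAT2 2.2.0 and build hg38 are named in the submitters' processing notes, while for the read counter and annotation the sources used here give no name. Per the labels' protocols, TRIzol RNA and the Illumina TruSeq RNA kit were used. Columns named NC were taken as the scramble libraries, since the other columns name IRF2BP2. Symbols came from a table of gene names, and places, strands and merged exon lengths from GENCODE release 29 (GRCh38). The genes, their roles and the other lists were chosen with earlier results of these data known.

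The test was that of edgeR 4.0.16 under R 4.3.3 (filterByExpr by group, TMM scaling, robust quasi-likelihood F-test, two-sided, Benjamini-Hochberg over 19093 genes, threshold 0.05). The design held the group only. CPM are scaled by TMM (factors 0.996 to 1.00), and FPKM divide them by merged exon length. Standard errors were taken as |log2 fold change| over the root of F. Called means an adjusted p under 0.05, and rose or fell is used of called genes only. The alternatives were DESeq2 1.42.0, limma 3.58.1 (voom), other scalings and filters, a replicate block, a test against 1.2-fold, and each library left out, which leaves 1 library in an arm, assumed to vary like the others. The edgeR procedure was tested on simulated data. Every one of the 54 genes could be named. Per-library values were due to the called genes with the 4 largest changes of a role, to every gene of a small role, and to some others added for comparison. Of the other pathway genes the 5 largest called rises and falls averaging 1 CPM or more were named. The chi-square per degree of freedom between replicates was 5.50 (IRF2BP2 shRNA) and 7.51 (scramble shRNA), so no library was a copy of another.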

Additional observations from a re-analysis of the deposited data

How the results depend on the processing

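Of the 29 calls, 18 kept their direction and their call in each of the 12 alternatives without a fold threshold, and none of the 29 changed sign in any. With upper quartile factors 25 of the 29 were kept, with DESeq2 25, with limma voom 28, with RLE factors or library totals 29. The median log2 fold change of the 54 genes was 0.0298 with upper quartile factors, 0.0937 with no filter on low counts and 0.0157 with genes averaging 10 CPM or more, where 14 rose and 15 fell of 51 tested; the cause was not tested. Against a change of 1.2-fold, a stricter test by construction, 8 of the 54 were called (6 higher, 2 lower), 15 of the other pathway genes and 4233 of all genes (1829 higher, 2404 lower). Leaving out 1 library gave 19 to 30 calls among the 54, with 12 to 20 higher, and a median between 0.0532 and 0.0653; 19 was the count without IRF2BP2 shRNA replicate 1, where fewer samples were fitted.

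Replicate numbers share only a number: the deviations of same-numbered libraries correlated at 0.06 across genes. With the replicate block 29 of the 54 were called (18 higher, 11 lower) and 7900 of all genes. Signs turned for 8 genes, in analyses that did not call them: UCK1 (0.00255 with RLE factors, 0.00253 with DESeq2, 0.00914 with no filter on low counts, between -0.0124 and 0.0115 without 1 library), ATIC (-0.0269 with upper quartile factors, -0.0179 at 10 CPM, from -0.0112 to 0.0663 without 1 library), HPRT1 (-0.00927 and -0.000462 in the same settings), and AHCY (-0.0157 and -0.00692). Without 1 library RRM2B lay between -0.0803 and 0.0227, GLDC between -0.0790 and 0.654, CTPS2 between -0.241 and 0.00112, and NME4 between -0.185 and 0.00470. With 2 libraries a group the number of replicates limits the precision, and depth limits GLDC and ALDH1L1.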

Other observations

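Among the other pathway genes, DPYD, DPYS and UPB1, which break down pyrimidine bases, fell with IRF2BP2 shRNA, a group picked after its values were seen. DPYD, the first enzyme of uracil and thymine breakdown, averaged 24.5 ± 0.66 CPM with IRF2BP2 shRNA and 35.5 ± 0.45 CPM with scramble shRNA (SD, n = 2 each, log2 fold change -0.53). The genes of the next steps were near the detection limit. DPYS had 9 and 2 counts with IRF2BP2 shRNA, against 27 and 18 counts with scramble shRNA (log2 fold change -1.97, edgeR adjusted p = 0.0318), and UPB1 had 12 and 11 counts, against 42 and 35 counts (-1.70, edgeR adjusted p = 0.00675). Genes that serve the mitochondrial nucleotide pool were also among the falls. TK2, the mitochondrial thymidine kinase, had 8.79 and 7.56 CPM with IRF2BP2 shRNA, against 13.1 and 15.3 CPM with scramble shRNA, AK3 had 53.3 and 50.7 CPM, against 85.2 and 80.5 CPM, and the pyrimidine nucleotide carrier gene SLC25A36 had 82.9 and 84.5 CPM, against 125 and 119 CPM. The cytosolic TK1 rose while the mitochondrial TK2 fell, and DGUOK, the mitochondrial deoxyguanosine kinase, was not called (log2 fold change 0.06).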
